A study of Mus musculus with 96 samples.

Results

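At 15 of the 42403 GATA6-bound regions of the series (0.0354%), GATA6 signal was strong after 4 days of doxycycline (Dox) treatment while SOX17 signal stayed low beside it. The 15 were chosen from the day 4 values themselves, as every region with at least 4 RPM of GATA6 (reads scaled to the size of the library) and a SOX17 to GATA6 ratio of at most 0.33. Of the 7178 regions with that much GATA6 at day 4, the 15 make up 0.209%. The remaining strong regions served for comparison, 3828 with a ratio above 0.33 and up to 1, called intermediate here, and 3335 with a ratio above 1, called SOX17-rich.

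GATA6 is a zinc finger transcription factor that binds DNA around the letters GATA, and it drives the formation of primitive endoderm (PrE), the early embryonic tissue that gives rise to the yolk sac endoderm. SOX17, an HMG box factor of the same lineage, recognises sequences around ACAAT, and its gene is activated when GATA6 is induced. SOX2 belongs to the same protein family as SOX17 and, with OCT4 and ESRRB, maintains pluripotency in embryonic stem (ES) cells.

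Binding was profiled by ChIP-seq, in which DNA is pulled down with the bound factor and sequenced. The ES cells were clones of the mouse line KH2 (C57BL/6 x 129/Sv), with the clone of each time point not given in the sources used here, and held an HA-tagged Gata6 transgene switched on by Dox, so that in every Dox sample the GATA6 pulled down includes the product of the transgene. They were collected untreated and after 8 h, 16 h, 1, 2 and 4 days of Dox. XEN cells, a stable line of extra-embryonic endoderm (line X10, strain CD1), were untreated and carry no transgene, and they differ from the ES cells in strain as well as in lineage. For the knockdown, cells of the single clone G6.3 received control siRNA (siCTL) or Oct4 siRNA (siOCT4) together with 1 µg/mL Dox, and GATA6 and SOX17 were profiled after 48 h. Feeder fibroblasts were only reduced by adsorption to plastic before fixation. The table holds binding and no gene expression, so neither the identity of the cells nor the depth of the knockdown could be checked against marker genes here.

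The value of a condition is a pool of its libraries, or by the labels that of 1 library for GATA6 before Dox and OCT4 in XEN cells. For SOX17 at 16 h and ESRRB at 8 h the labels list 2 libraries, but the values resolved as 1, of 20 and 9.1 M reads. Whole reads of the single libraries could be recovered for 40 of the 45 columns of signal, and the recovered libraries held 5.42 to 69.4 M reads. Values are given below as the pair of single libraries, the deeper one first, wherever a result rests on them. These libraries could not be matched to replicate numbers. The methods of the study describe the replicates of most conditions as independent preparations of chromatin, and whether these came from separate cultures is not given in the sources used here, so that p-values measure only the spread between these libraries.

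The 15 regions are named after the gene that holds them or, between genes, after the gene with the nearest coding start, a name that says nothing about regulation. Coordinates are those of mm10. A single region, in Mgarp (chr3:51387939-51389396), had its GATA6 summit in an exon, the last coding exon of a gene for a mitochondrial protein. The summits of 8 regions were in introns. Among them were those in Arid3a (chr10:79948927-79949565), Kif23 (chr9:61940606-61941449), Dock9 (chr14:121734992-121735661), Rasgrf1 (chr9:89972596-89973304), Gse1 (chr8:120371699-120372356), Prdm6 and the long non-coding RNA 4930557F10Rik (chr13:23307128-23307885). The region of Gse1 also lies in the overlapping gene model Gm20388, and that of Arid3a reaches into an exon. The other 6 summits were between genes. The region near Cldn2 (chrX:139814013-139814629) lies 8.19 kb downstream of the start of this claudin gene of the tight junction. Those near Muc5ac (chr7:141770487-141771418), a secreted mucin, and Gsc (chr12:104491944-104493386), a homeobox factor of the gastrula organizer, lie 17.8 and 19.1 kb upstream. The region near Cck (chr9:121548890-121549504), the gene of the hormone cholecystokinin, lies 53.5 kb upstream, and those near Tmtc1 (chr6:148615603-148616526) and Klhl29 (chr12:5727262-5727685) are 172 and 352 kb away.

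The sequences around the best GATA6 motif match of 6 of the 10 regions with the most GATA6 at day 4 are printed to show how the GATA letters lie. Capitals mark GATA or, on the other strand, TATC, and the sequences are read from the RefSeq mouse genome of the mm10 build, 121 bases each, centred on the match.
Tmtc1, chr6:148616049-148616169, plus strand: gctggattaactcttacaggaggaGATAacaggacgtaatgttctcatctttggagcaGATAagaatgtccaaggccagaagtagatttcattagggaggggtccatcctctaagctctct
4930557F10Rik, chr13:23307508-23307628, plus strand: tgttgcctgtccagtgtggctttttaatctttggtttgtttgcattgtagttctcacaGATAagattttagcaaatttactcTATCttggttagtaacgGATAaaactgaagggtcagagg
Cldn2, chrX:139814140-139814260, plus strand: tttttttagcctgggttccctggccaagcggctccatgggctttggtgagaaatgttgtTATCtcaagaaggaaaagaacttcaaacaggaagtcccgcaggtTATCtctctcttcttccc
Muc5ac, chr7:141771109-141771229, plus strand: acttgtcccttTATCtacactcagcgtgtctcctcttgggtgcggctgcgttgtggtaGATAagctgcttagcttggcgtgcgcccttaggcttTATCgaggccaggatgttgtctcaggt
Kif23, chr9:61940854-61940974, plus strand: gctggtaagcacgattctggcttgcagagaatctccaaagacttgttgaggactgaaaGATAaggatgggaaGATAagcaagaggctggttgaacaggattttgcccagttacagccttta
Cck, chr9:121549126-121549246, plus strand: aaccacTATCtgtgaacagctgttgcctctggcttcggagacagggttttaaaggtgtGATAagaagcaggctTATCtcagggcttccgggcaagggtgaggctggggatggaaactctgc
Each of the 6 windows holds 2 or 3 copies of GATA when both strands are read, one of them at its centre. A further 3 windows, chosen after their values were seen, show regions in which GATA recurs in units of a repeat. The window of Mgarp lies wholly in coding sequence and, like that of Arid3a, is centred on the GATA6 summit. The window of Klhl29 is centred on its best match.
Mgarp, chr3:51388945-51389065, plus strand: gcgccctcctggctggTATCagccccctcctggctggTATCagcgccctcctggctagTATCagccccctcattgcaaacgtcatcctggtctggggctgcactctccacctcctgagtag
Arid3a, chr10:79949137-79949257, plus strand: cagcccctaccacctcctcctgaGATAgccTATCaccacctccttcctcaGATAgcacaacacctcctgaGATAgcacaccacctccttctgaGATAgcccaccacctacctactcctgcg
Klhl29, chr12:5727341-5727461, plus strand: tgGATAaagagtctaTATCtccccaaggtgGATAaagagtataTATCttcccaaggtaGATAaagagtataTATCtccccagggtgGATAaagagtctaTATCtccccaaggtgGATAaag
In the region of Klhl29 the best stretch of 80 bases matched itself at 93.8% of positions when shifted by 28 bases, and in Mgarp at 88.8% when shifted by 21 bases. The repeat of Arid3a was looser, with 61.3% at a shift of 47 bases. At a limit of 80%, 2 of the 15 regions (13.3%, Wilson 95% interval 3.74 to 37.9%) held such a tandem repeat, beside 0.444% of the intermediate, 0.48% of the SOX17-rich and 0.502% of all regions.

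GATA letters were dense around the summits, with at least 3 copies in each of the 15 regions. In the 201 bp around the GATA6 summit, GATA on either strand occurred 4 times in the median region, beside 3 times in the intermediate, 2 in the SOX17-rich and 2 in all regions. At least 4 occurrences were found in 12 of the 15 regions (80%, 54.8 to 93.0%), beside 31.8%, 16.6% and 18.5% in the same 3 sets. Klhl29 had 9 and Arid3a had 8. The longer form AGATAAG, which contains GATA, was present in 9 of 15 (60%, 35.7 to 80.2%), beside 38.3%, 21.9% and 27.9%. By the authors' motif scan, the best GATA6 match was in the high class for 8 regions (53.3%, 30.1 to 75.2%, beside 40.9% of intermediate, 24.7% of SOX17-rich and 26.8% of all regions), the middle class for 5 and the low class for 2, Arid3a and Klhl29, the pair with the most GATA letters.

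SOX letters were scarce in the same windows. ACAAT, searched on both strands, was found in 2 of the 15 windows (13.3%, 3.74 to 37.9%), those of 4930557F10Rik and Dock9, beside 36.2% of intermediate, 74.3% of SOX17-rich and 46.6% of all regions. The interval of the 15 holds the intermediate share. None of the 15 held ACAATGG, which contains ACAAT, where 4.31%, 23.2% and 8.96% of the 3 sets did, and with 15 regions the Wilson interval reaches 20.4%. The authors' scan found no SOX17 match in 8 of the regions (53.3%, 30.1 to 75.2%), beside 21% of intermediate, 5.94% of SOX17-rich and 30.8% of all regions. Here the interval holds the share of all regions. The best match was in the low class in 6 regions and in the middle class in Muc5ac. No region reached the high class, which held 23.4% of intermediate and 41.0% of SOX17-rich regions. The regions were also somewhat narrower than the strong ones, with a median width of 709 bp beside 984 and 945 bp, which gives a scan over the whole region fewer places to match, while the 201 bp windows do not depend on width. The other motifs searched in these windows on both strands were TGANTCA, found in 0 regions (10.7% of all regions), TGTTTAC, in 0 (6.16%), AGGTCA, in 1 (16.2%), and CANNTG, in 8 (65.1%), together with the octamer motif of OCT4, in 0 (3.0%).

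**Figure D1:**
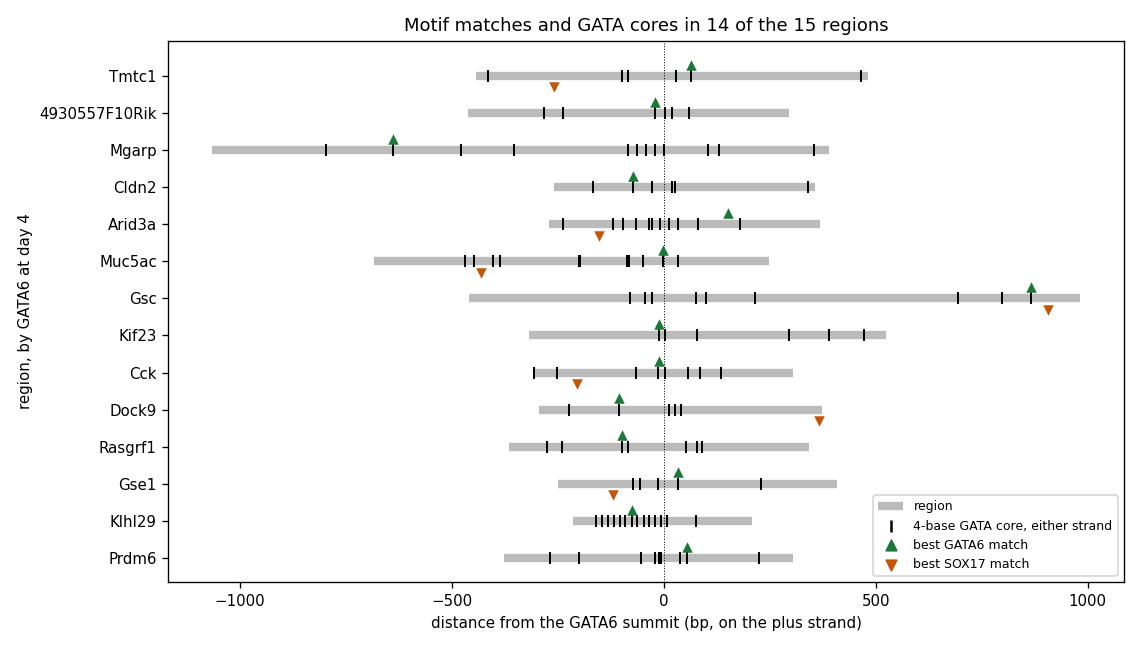
Positions of GATA (black ticks, either strand), the best GATA6 match (green, up) and the best SOX17 match (orange, down) along 14 of the 15 regions, in bp from the GATA6 summit, with regions in order of day 4 GATA6. Orange marks stand in 7 of the 14 regions, and runs of ticks at regular steps mark the repeats of Klhl29 and Mgarp.

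None of the 15 regions was within 1 kb of a coding gene's start, where 14.4% of intermediate, 7.29% of SOX17-rich and 7.38% of all regions lay, and the Wilson interval for 0 of 15 reaches 20.4%. The median distance to the nearest coding start was 19.1 kb, beside 13.1, 18.6 and 22.1 kb. The 15 regions also stood apart from other strong sites. Only 4 of them had another strong GATA6 region within 50 kb (26.7%, 10.9 to 52.0%), among them those in Mgarp, Kif23 and Prdm6, where 62.8% of intermediate and 64.0% of SOX17-rich regions did. No pair of the 15 lay within 5 kb of each other. None had a gene from the lists of PrE regulators, extracellular matrix, endoderm transport, pluripotency, signalling or GATA cofactors as its nearest coding start, lists that took 0.193% to 0.5% of all regions each. The region in 4930557F10Rik overlapped a valine tRNA gene (n-TVcac11, chr13:23307629-23307701), as did, for tRNA genes in general, 42 of all regions (0.099%).

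Before induction, 12 of the 15 regions were in the authors' closed class of chromatin (80%, 54.8 to 93.0%), beside 60.7% of intermediate, 61.1% of SOX17-rich and 61.3% of all regions, and the interval of the 15 holds all 3 shares. The exceptions were 4930557F10Rik, the only accessible region and the only one in the promoter state, and Mgarp and Gse1, which were of moderate accessibility. By histone state, 5 regions were in facultative heterochromatin (33.3%, 15.2 to 58.3%, beside 22.3% of all regions), namely Cldn2, Muc5ac, Cck, Rasgrf1 and Klhl29. The class named naive held 4, primed enhancers 3 and poised enhancers 2, and no region was an active enhancer, a state of 11.2% of all regions. The authors' clusters of GATA6 binding put 13 regions in the early cluster (86.7%, 62.1 to 96.3%), beside 73.6% of intermediate, 62.8% of SOX17-rich and 28.0% of all regions, and 2, Klhl29 among them, in the late one. The interval of the 15 holds the shares of both strong sets.

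At day 4, the values that chose the regions ran from 4.12 RPM of GATA6 in Prdm6 to 7.36 RPM in Tmtc1, with a median of 4.87. That is strong among all regions, whose median was 1.29 RPM, but below the medians of 6.47 and 6.9 RPM in the intermediate and SOX17-rich regions. SOX17 ran from 0.939 RPM in Arid3a to 2.38 RPM in 4930557F10Rik. Arid3a had the lowest ratio, 0.16, and was the single region under 0.25. The next lowest were Cck at 0.27 and Gse1 at 0.28. Little SOX17 did not mean none. Its level at day 4 was 1.83 times that of input chromatin in the median region, from 1.23 times in Arid3a to 7.0 times in Klhl29, and 7 of the 15 regions were in the authors' class of SOX17-bound regions (46.7%, beside 90.5% of intermediate and 44.5% of all regions). Just inside the ratio limit were Klhl29 at 0.325 and 4930557F10Rik and Dock9 at 0.327. Just outside it were chr6:17938367-17939330 at 0.331, and chr8:125133539-125134481 and chr15:39801609-39802217, both at 0.332. Just outside the GATA6 limit were regions of 3.84, 3.88 and 3.89 RPM. The limit runs through the thin end of a continuous spread, since 84 of the strong regions had ratios of at most 0.4 and 335 of at most 0.5.

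**Figure D2:**
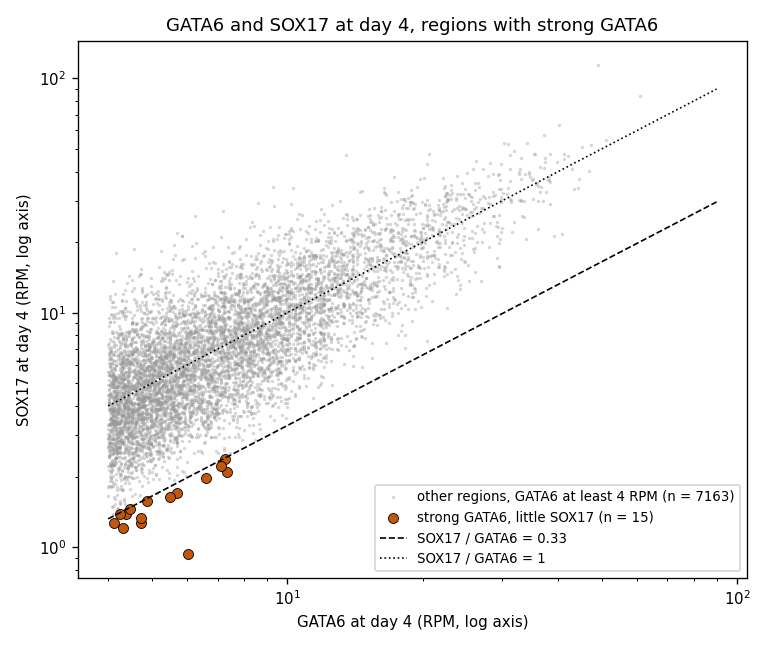
SOX17 against GATA6 at day 4 (pooled RPM, both axes logarithmic) for the 7178 regions with at least 4 RPM of GATA6, with the 15 chosen regions in orange and lines at ratios of 0.33 and 1. The 15 lie at the lower edge of a single cloud, between 4.12 and 7.36 RPM of GATA6, and Arid3a is the one farthest below the line.

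The choice leaned on one of the day 4 GATA6 libraries. GATA6 was higher in the shallower library (11.8 M reads) than in the deeper one (18 M reads) at 13 of the 15 regions, with medians of 6.11 and 4.1 RPM, while the medians of all strong regions were 6.88 and 6.26 RPM. The gap was widest in Arid3a, with 3.16 and 8.74 RPM, and Tmtc1, with 5.16 and 9.42 RPM. SOX17 showed no such lean and was higher in the deeper library at 8 of the 15. Applied to single libraries, the rule was met by 15 and 13 of the 15 regions with the shallower GATA6 library and by 4 and 5 with the deeper one, where it picked 88, 241, 38 and 15 of all regions (0.208%, 0.568%, 0.0896% and 0.0354%). The labels list 3 GATA6 libraries at day 4, of which only 2 could be told apart in the pooled values. XEN cells and the other times were not used by the rule.

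In XEN cells, GATA6 exceeded SOX17 at all 15 regions. Both GATA6 libraries were above both SOX17 libraries in 15 of 15, against a background of 53.9% of all regions, 95% of intermediate and 52.8% of SOX17-rich regions. In the Mgarp region, GATA6 was 9.06 and 9.39 RPM and SOX17 1.75 and 1.45 RPM. In Prdm6 (chr18:53513267-53513951), which encodes a regulator of the PR domain family, GATA6 was 7.76 and 7.61 RPM and SOX17 1.41 and 1.71 RPM. In Cck, GATA6 was 5.08 and 5.0 RPM and SOX17 0.901 and 0.599 RPM. The paired libraries were close to each other in these regions and the factors were several-fold apart. SOX17 was near the input libraries in Mgarp, which were 1.4 and 1.42 RPM, and in Cck, which were 0.558 and 1.29 RPM. In Prdm6 input was 0.488 and 0.646 RPM, and by the pooled values SOX17 was 2.45 times input, the most of the 15.

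The median ratio of SOX17 to GATA6 in XEN cells was 0.28 (interval of the median 0.22 to 0.34), from 0.16 in Cck to 0.47 in Gsc and Rasgrf1. The intermediate, SOX17-rich and all regions had medians of 0.49, 0.83 and 0.7. A ratio of at most 0.33 was kept in XEN cells by 11 of the 15 regions (5.62% of all and 11.2% of intermediate regions). The exceptions were Gsc, Rasgrf1, Kif23 at 0.39 and Dock9 at 0.34. SOX17 itself was 1.26 times input in the median of the 15, beside 2.72 times in intermediate and 5.76 times in SOX17-rich regions, and it was under 2 times input in 12. Both SOX17 libraries were nevertheless above both input libraries in 11 of the 15 (59.7% of all and 87.2% of intermediate regions), as both GATA6 libraries were in 15 (71.5% of all regions).

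Tested across 42260 regions with edgeR's quasi-likelihood test and Benjamini-Hochberg adjustment, SOX17 relative to GATA6 in XEN cells was lower than in the typical region at 11 of the 15, beside a background of 8.48% of all regions, 39.0% of intermediate and 1.38% of SOX17-rich regions, and higher at 0 (8.73% of all regions). The log2 fold changes of the 15 ran from -2.08 to -0.47 with a median of -1.40, all below the median of all regions, 0.03. Cck gave -2.08 (SE 0.31, edgeR adjusted p = 6.16e-08), Mgarp -1.89 (SE 0.23, edgeR adjusted p = 9.18e-11) and Prdm6 -1.72 (SE 0.24, edgeR adjusted p = 1.31e-08). The 4 regions that did not pass were Gsc (-0.52), Rasgrf1 (-0.47), Kif23 (-0.86) and Klhl29 (-1.40, SE 0.63), of which Klhl29 had at most 13 reads in any XEN library of either factor. The normalization sets this comparison relative to the typical region, and with library totals only, where the median of all regions was -0.56, all 15 passed beside 30.2% of regions. DESeq2 called 6 (1.92% of all regions).

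**Figure D3:**
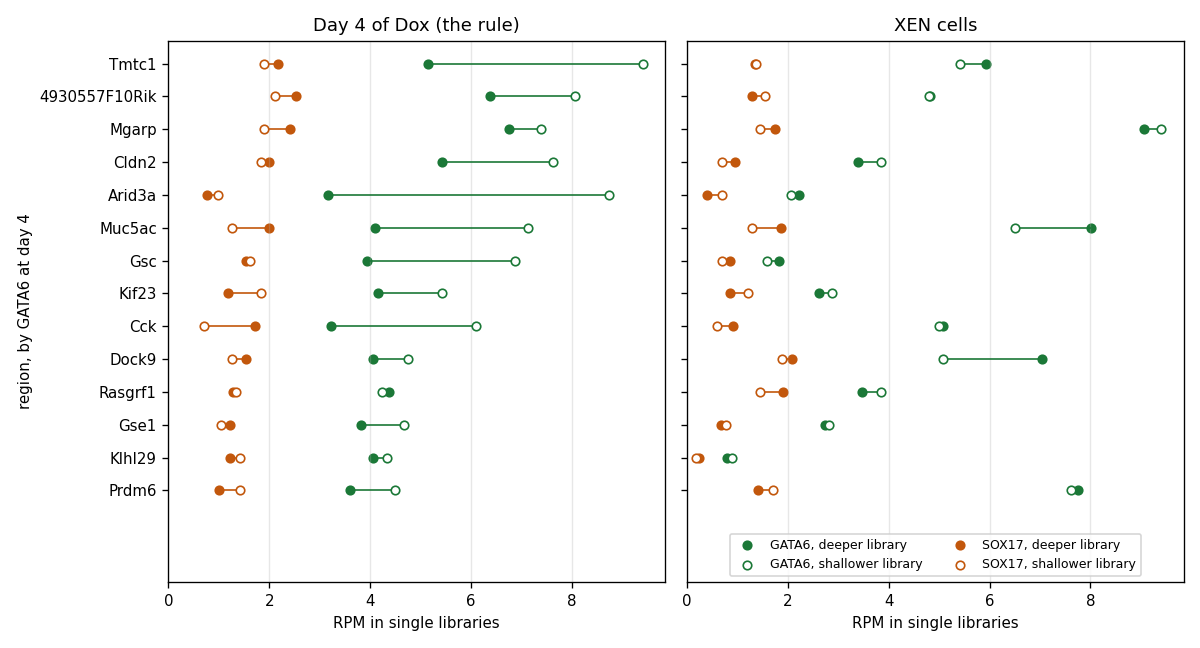
GATA6 (green) and SOX17 (orange) RPM in the deeper (filled) and shallower (open) library of each condition for 14 of the 15 regions, at day 4 on the left and in XEN cells on the right. At day 4 most open green points lie to the right of the filled ones, while in XEN cells the paired points are close except in Muc5ac and Dock9, and green lies right of orange in every row.

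GATA6 itself was still present at most of these regions in XEN cells. Its median was 4.88 RPM there and 4.87 RPM at day 4, with 8 of the 15 at or above 4 RPM and 6 higher than at day 4. Region by region, the median log2 change of RPM from day 4 to XEN cells, with a pseudocount of 0.193 RPM, was -0.35 (-0.81 to 0.36) beside -0.03 in all regions, and it was -0.49 beside 0.00 with input subtracted. The highest XEN values were those of Mgarp at 9.29 RPM, Prdm6 at 7.75 RPM and Muc5ac at 7.33 RPM. A fall of at least 2-fold from day 4 was seen at 3 of the 15 (11.7% of all regions) and a rise of that size at 0 (14.4%), which has no test because the day 4 values chose the regions. In Klhl29 GATA6 was 4.05 and 4.33 RPM at day 4 and 0.782 and 0.891 RPM in XEN cells. In Gsc it was 3.94 and 6.88 RPM and then 1.83 and 1.58 RPM. In Arid3a it was 3.16 and 8.74 RPM and then 2.22 and 2.06 RPM. These are the 3 regions that fell by at least 2-fold, so the gap between their day 4 and XEN libraries follows from that choice and is a description.

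During Dox treatment GATA6 came to most of the 15 regions before day 4. The pooled median was 0.49 RPM before Dox, 2.86 RPM at 8 h and 8.89 RPM at 16 h, and it then stood at 6.54, 5.79 and 4.87 RPM at days 1, 2 and 4. The value before Dox comes from 1 library of 6.12 M reads. The high value at 16 h rested on one library. The shallower 16 h library (8.54 M reads) was the higher one at 15 of the 15 regions (66.6% of all regions), with a median of 11.1 RPM. The deeper one was little larger, with 8.73 M reads, and had a median of 5.84 RPM. In the intermediate regions the pooled median of GATA6 was 3.27 RPM at 8 h, 4.92 RPM at 16 h and 6.47 RPM at day 4. GATA6 was highest at 16 h in 8 of the 15, and higher at 16 h than at day 4 in 10. The shares of all regions were not counted for these, and both counts contain the day 4 values of the rule, so they are a description. With the deeper 16 h library alone these counts were 1 and 7, and with the shallower one alone 10 and 10. The ratio of 16 h to day 4 had a median of 1.55 (0.598 to 2.1) in the 15. It was 0.697 in intermediate, 0.403 in SOX17-rich and 1.18 in all regions. The interval of the 15 holds the medians of intermediate and of all regions, and the comparison contains the day 4 values of the rule. With the deeper 16 h library alone the medians in the same order were 0.952, 0.54, 0.309 and 0.966. Gsc was the earliest, with 22.0 and 20.5 RPM at 8 h, which 99.0% of regions did not reach. In Mgarp, GATA6 was 8.07 and 7.51 RPM at 8 h and 7.68 and 18.5 RPM at 16 h.

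Other regions held little GATA6 at 8 h. In Arid3a, which encodes a DNA-binding factor of the ARID family, GATA6 was 1.05 and 1.31 RPM at 8 h, 4.01 and 17.8 RPM at 16 h and 14.0 and 9.15 RPM at day 2. In Cldn2 it was 1.73 and 1.75 RPM at 8 h, 2.98 and 4.69 RPM at 16 h and 6.88 and 6.14 RPM at day 2. In both the day 2 libraries lay well above those of 8 h. By edgeR's quasi-likelihood test with Benjamini-Hochberg adjustment, GATA6 was higher at day 2 than at 8 h in 11 of the 15 (34.0% of all regions, 63.8% of intermediate and 71.1% of SOX17-rich regions) and lower in 1 (32.6%), Gsc. Arid3a rose by 3.78 on the log2 scale (SE 0.22, edgeR adjusted p = 4.99e-18), Cldn2 by 2.30 (SE 0.21, edgeR adjusted p = 2.95e-12) and Muc5ac by 2.18 (SE 0.19, edgeR adjusted p = 3.21e-13). Gsc fell by 0.43 (SE 0.14, edgeR adjusted p = 0.00681), a call lost without the deeper 8 h library or the shallower day 2 library. With DESeq2, 7 of the 15 rose (18.4% of all regions), as many as without the deeper 8 h library. With library totals only, which set the median of all regions at -0.24 in place of 0.15, 8 rose (24.8% of all regions) and 1 fell (40.4%).

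Klhl29 was unlike the rest. Its GATA6 signal was 0.0864 and 0.262 RPM at 8 h, 0.491 and 0.476 RPM at day 2 and 4.05 and 4.33 RPM at day 4. SOX17 moved with it, from 0.157 and 0 RPM at day 2 to 1.23 and 1.41 RPM at day 4, OCT4 from 0.053 and 0.118 RPM to 0.512 and 0.8 RPM, and SOX2 from 0.226 and 0.36 RPM to 0.48 and 1.41 RPM. All 4 factors thus had higher values at day 4 in this 424 bp region, where input was 0.113 RPM in both day 4 libraries, or 2 and 1 reads. The day 4 values of GATA6 and SOX17 chose the region, so the rise of these factors is a description. At day 2, SOX17 rests on 2 and 0 reads and OCT4 on 2 and 2 reads. Higher values of all 4 factors at day 4 than at day 2 were not particular to Klhl29. In Kif23 pooled GATA6 went from 2.66 to 4.87 RPM and SOX17 from 1.18 to 1.57 RPM. OCT4 went from 1.16 to 1.3 RPM there and SOX2 from 0.787 to 2.2 RPM. The part of the repeat in the pattern of Klhl29 was not tested.

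**Figure D4:**
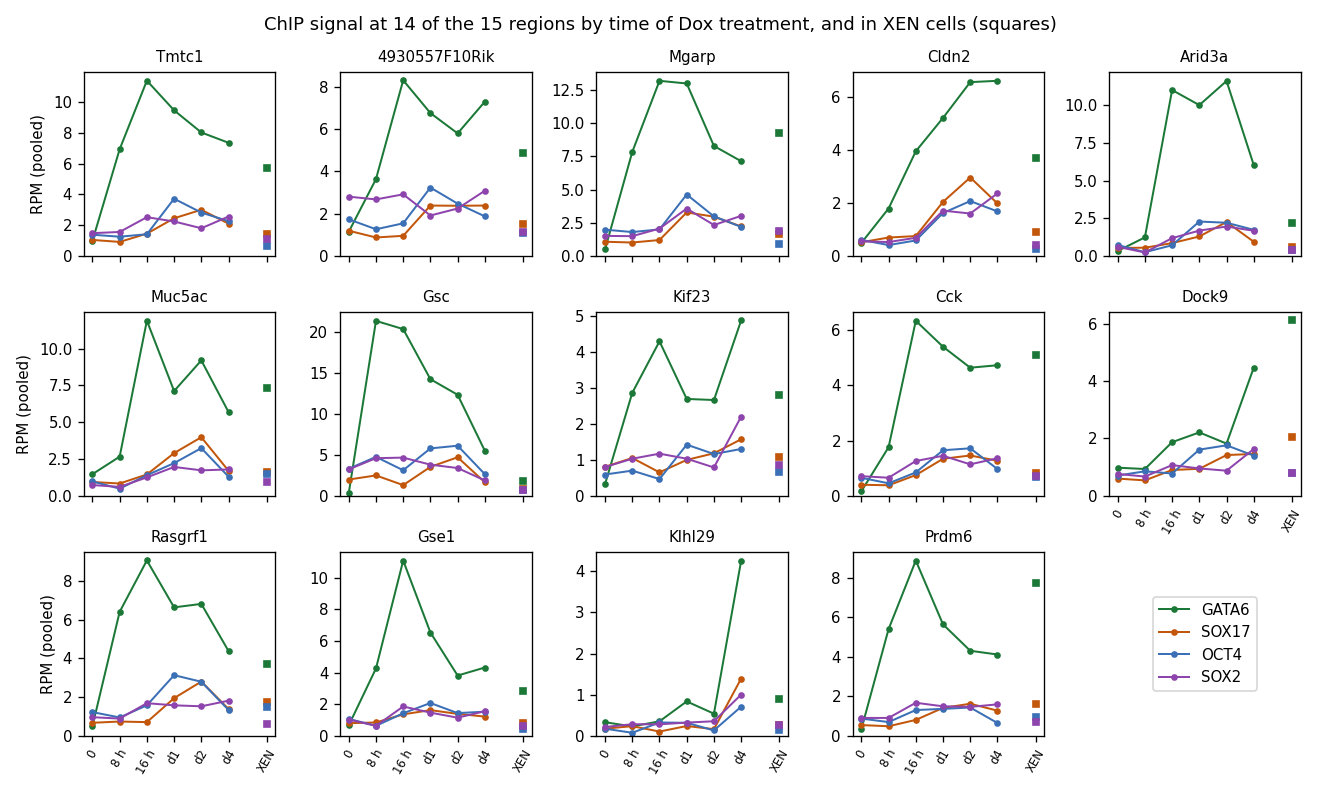
Pooled RPM of GATA6 (green), SOX17 (orange), OCT4 (blue) and SOX2 (purple) in 14 of the 15 regions from before Dox to day 4, with XEN cells as squares on the right, on a linear axis of its own per region that starts at 0. Green peaks at 16 h in 8 panels, a count that is 1 with the deeper 16 h library alone, and Klhl29 is flat until day 4.

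SOX17 was low beside GATA6 before day 4 as well, from 16 h on. The median ratio in the 15 regions was 0.24, 0.12, 0.28 and 0.38 at the 4 times from 8 h to day 2. It was 0.33, 0.25, 0.6 and 0.72 in intermediate, 0.44, 0.41, 1.04 and 1.22 in SOX17-rich and 0.38, 0.35, 0.72 and 0.87 in all regions. At 8 h the interval of the 15, 0.13 to 0.44, holds the medians of intermediate and of all regions and reaches that of SOX17-rich regions. SOX17 was then 1.0 times input in the median of the 15. A ratio of at most 0.33 was met by 9 of the 15 after 8 h (43.0% of all and 49.6% of intermediate regions). After 16 h it was met by 14 (46.0% and 68.2%), where the SOX17 values resolved as 1 library. The counts were 9 on day 1 (5.09% and 4.49%) and 3 on day 2 (1.38% and 0.653%), the latter Arid3a, Cck and Klhl29. On day 1 both GATA6 libraries were above both SOX17 libraries in 15 of the 15 (46.9% of all and 72.7% of intermediate regions). SOX17 did accumulate, from a median of 0.731 RPM at 8 h to 2.25 RPM at day 2, and it was highest at day 2 in 7 of the 15. That count contains the day 4 values of the rule, and the share of all regions was not counted. In all regions the SOX17 median was 0.947 RPM at day 2 and 1.1 RPM at day 4. At day 2 both SOX17 libraries were above both input libraries in 13 (70.8% of all regions). The highest day 2 values were those of Gsc, with 5.82 and 3.4 RPM, and Muc5ac, with 5.04 and 2.77 RPM. There GATA6 was 14.3 and 10.2 RPM in Gsc and 9.88 and 8.41 RPM in Muc5ac, so that it exceeded SOX17 in every library of both regions.

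At day 2, both GATA6 libraries were above both SOX17 libraries in 14 of the 15 (36.3% of all regions, 58.6% of intermediate and 7.37% of SOX17-rich regions). The exception was Dock9, with 2.11 and 1.43 RPM of GATA6 and 1.57 and 1.11 RPM of SOX17, and its pooled ratio of 0.78 was the highest of the 15. By edgeR's quasi-likelihood test with Benjamini-Hochberg adjustment over 42232 regions, SOX17 relative to GATA6 was lower than in the typical region in 11 of the 15 (2.58% of all regions, 9.85% of intermediate and 0.0609% of SOX17-rich regions) and higher in 0 (6.72%). Arid3a was lowest among the called regions at -2.16 (SE 0.29, edgeR adjusted p = 1.4e-07), followed by Cck at -1.46 (SE 0.31, edgeR adjusted p = 0.000763). Among the 4 that did not pass were Kif23 (-0.98), Klhl29 (-2.26, SE 0.93) and Dock9 (-0.14). This count rested on one library. Without the deeper GATA6 library of day 2 it was 2, Arid3a and Cck, and it was 6 with library totals only (1.19% of all regions) and 5 with DESeq2 (0.296%).

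**Figure D5:**
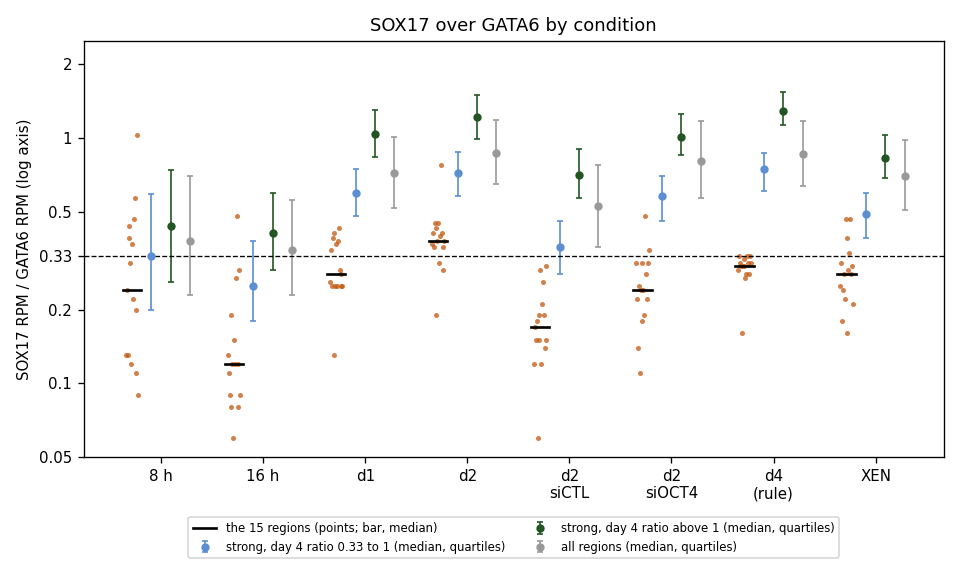
Ratio of SOX17 to GATA6 (pooled RPM, logarithmic axis) by condition, with the 15 regions as points and their median as a bar, and the median with quartiles of intermediate, SOX17-rich and all regions. Apart from day 4, where the ratio is the rule, the median of the 15 lies below that of every other set in each condition, at 0.28 in XEN cells and 0.17 with control siRNA.

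OCT4 came to these regions after Dox in the same low range as SOX17. The authors' classes put 7 of the 15 in ectopic binding of pluripotency factors (46.7%, beside 16.6% of all and 43.6% of intermediate regions), 7 in none and 1, Gsc, among the sites bound before induction. OCT4 had a median of 0.69 RPM at 8 h and 2.07 RPM at day 2, and it was highest at day 1 or day 2 in 13 of the 15. The share of all regions was not counted for this. In all regions the OCT4 median was 0.963, 0.918 and 0.756 RPM at days 1, 2 and 4. In intermediate regions it was 2.74, 2.86 and 2.96 RPM. Both OCT4 libraries of day 2 were above both of 8 h in 15 of 15, against 43.4% of all regions, 81.1% of intermediate and 78.6% of SOX17-rich regions, and they were above both input libraries of day 2 in 13 (74.2% of all regions). In Muc5ac, OCT4 was 0.458 and 0.372 RPM at 8 h and 2.86 and 3.53 RPM at day 2. In Arid3a it was 0.131 and 0.223 RPM, which are 2 and 3 reads, and then 1.62 and 2.7 RPM. The Gsc region carried the most OCT4 at day 2, 5.01 and 7.11 RPM, and had 4.65 and 4.69 RPM already at 8 h.

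By edgeR's quasi-likelihood test with Benjamini-Hochberg adjustment, OCT4 was higher at day 2 than at 8 h in 9 of the 15 (17.5% of all regions, 48.4% of intermediate and 48.5% of SOX17-rich regions) and lower in 0 (20.3%). The share of the 15 is thus near that of other strong regions. The largest of the called changes on the log2 scale were 3.23 in Arid3a (SE 0.51, edgeR adjusted p = 1.37e-08), 2.61 in Muc5ac (SE 0.39, edgeR adjusted p = 1.71e-09) and 2.19 in Cldn2 (SE 0.44, edgeR adjusted p = 8.14e-06). In Gsc the change was 0.05 (SE 0.22). DESeq2 called 4 (7.19% of all regions), and 5 were called without the shallower 8 h library or without the deeper day 2 library. SOX2 was higher in 3 of the 15 (12.6% of all and 36.7% of intermediate regions) and lower in 0 (15.0%), again Arid3a at 3.61 (SE 0.55, edgeR adjusted p = 5.26e-07), Cldn2 at 1.90 (SE 0.45, edgeR adjusted p = 0.000866) and Muc5ac at 1.87 (SE 0.46, edgeR adjusted p = 0.00124). The SOX2 value of Arid3a rests on 3 and 1 reads at 8 h, and with DESeq2 Arid3a was the 1 region called (3.33% of all regions).

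By day 4, SOX2 exceeded SOX17 in 14 of the 15 regions, all but Klhl29, with a median ratio of SOX2 to SOX17 of 1.25, beside 0.74 in intermediate, 0.47 in SOX17-rich and 0.75 in all regions. This ratio contains the SOX17 value of the rule and is a description. OCT4 fell back to a median of 1.52 RPM at day 4 and 0.667 RPM in XEN cells, beside an input of 0.881 RPM there. The XEN value of OCT4 comes from 1 library of 7.5 M reads. ESRRB stayed between medians of 0.549 and 1.05 RPM throughout, close to the input medians of 0.62 to 1.09 RPM between 8 h and day 4.

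With control siRNA at day 2, the median GATA6 of the 15 regions was above that of every time of the time course. It was 13.7 RPM, beside 5.79 RPM at day 2 without siRNA, and both control libraries were above both day 2 libraries in 15 of 15, against 57.6% of all, 80.1% of intermediate and 74.6% of SOX17-rich regions. Arid3a reached 36.7 and 42.1 RPM, the rank 93 of all 42403 regions, where day 2 without siRNA had given 14.0 and 9.15 RPM. Klhl29 had 2.89 and 3.37 RPM, beside 0.491 and 0.476 RPM. The ratio of control siRNA to day 2 had a median of 2.12 (1.79 to 2.62) in the 15, of 1.74 in intermediate, 1.62 in SOX17-rich and 1.46 in all regions. The sets differ in nucleofection, the siRNA set comes from 1 clone, and its libraries were read from both ends of the fragment and those of the time course from a single end, and these cannot be told apart. The SOX17 to GATA6 ratio was at most 0.33 in 15 of the 15 with control siRNA (20.8% of all and 40.1% of intermediate regions). With Oct4 siRNA it was so in 13 (3.85% and 5.77%), and the medians of the 15 were 0.17 and 0.24. Both GATA6 libraries were above both SOX17 libraries in 15 of the 15 under either siRNA. The shares were 69.8% of all and 98.2% of intermediate regions with control siRNA, and 32.6% and 71.5% with Oct4 siRNA.

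With Oct4 siRNA, GATA6 was lower in 3 of the 15 regions (11.7% of all, 11.7% of intermediate and 4.5% of SOX17-rich regions) and higher in 1 (13.8% of all, 23.0% and 43.1%) by edgeR's quasi-likelihood test with Benjamini-Hochberg adjustment. In Rasgrf1, an exchange factor for Ras, GATA6 was 13.4 and 15.6 RPM with control siRNA and 6.35 and 7.46 RPM with Oct4 siRNA. In Gsc it was 19.1 and 23.6 RPM and then 13.6 and 11.7 RPM. In Arid3a it was 36.7 and 42.1 RPM and then 28.1 and 27.7 RPM. The libraries did not overlap in these 3 regions. In all, 6 of the 15 had less GATA6 in both Oct4 siRNA libraries than in both control libraries (28.1% of all and 16.0% of intermediate regions), and 2 had more (24.9% and 27.5%). The log2 fold changes were -1.05 in Rasgrf1 (SE 0.16, edgeR adjusted p = 7.48e-09), -0.67 in Gsc (SE 0.13, edgeR adjusted p = 1.02e-05) and -0.45 in Arid3a (SE 0.11, edgeR adjusted p = 0.000325). DESeq2 called the same 3 regions (4.14% of all regions), and with library totals only Rasgrf1 alone passed.

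The single call of a rise was lost with DESeq2, with library totals only and without any single one of the 4 libraries. In the other 11 regions the change ran from -0.36 in Cldn2 to 0.25 in Klhl29 and did not pass. The median of the 15 was -0.15, beside -0.02 in all, 0.10 in intermediate and 0.35 in SOX17-rich regions.

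SOX17 with Oct4 siRNA gave no firm change in these regions. Relative to the typical region, edgeR's quasi-likelihood test with Benjamini-Hochberg adjustment called 3 lower (6.48% of all regions), Rasgrf1 at -1.24 (SE 0.32, edgeR adjusted p = 0.0028), Mgarp at -1.04 (SE 0.34, edgeR adjusted p = 0.0229) and Gsc at -0.94 (SE 0.30, edgeR adjusted p = 0.0239), and 0 higher (7.5%). SOX17 in Rasgrf1 was 2.6 and 2.89 RPM with control siRNA and 1.27 and 2.48 RPM with Oct4 siRNA. In Mgarp it was 2.22 and 2.27 RPM and then 1.23 and 2.26 RPM. The Oct4 siRNA libraries differed from each other by 0.81 on the log2 scale in the median of the 15 regions and by 0.8 in that of all regions, the shallower one being higher. Both were below both control libraries in 1 of the 15 (5.62% of all regions) and above both in 4 (44.2%). With library totals only, where the typical region rose by 0.63, none of the 15 was called lower (0.0118% of all regions) or higher (2.48%) at an adjusted or an unadjusted p under 0.05, DESeq2 called 1 (2.49%), and 0 were called when either one of the Oct4 siRNA libraries was left out.

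Whether the knockdown moved SOX17 and GATA6 differently was tested as an interaction. The edgeR test called 0 of all 42403 regions after adjustment, as did DESeq2. Among the 15, 1 was higher and 1 lower at an unadjusted p under 0.05 in either tool, Tmtc1 at 0.77 (SE 0.30, edgeR adjusted p = 0.608) and Mgarp at -0.86 (SE 0.31, edgeR adjusted p = 0.583).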

How the data were processed

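ChIP-seq of GATA6, SOX17, OCT4, SOX2 and ESRRB and input chromatin was analysed in mouse ES cells during Dox treatment, in XEN cells and after siRNA. The deposited table gives, for 42403 GATA6-bound regions, RPM values that the authors pooled over the libraries of a condition. The submitters' processing notes name mm10, Bowtie2, SAMtools, bcl2fastq and cutadapt. The deposited motif scores and classes of binding, accessibility and chromatin were used as the authors made them, and their column on the outcome of a comparison was not used. A further 14 columns of single-sample values were not used.

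The pooled RPM of a column is the mean over its libraries of scaled reads, with 1 read added to each count. Whole reads were recovered for 36 columns as 2 libraries and for 4 as 1, and at least 97.7% of values in each had a unique solution. The other 5 columns were used only as pooled RPM. The added read was subtracted from the recovered reads, while pooled values, and the medians and ratios made from them, keep it. Recovered libraries held 5.42 to 69.4 M reads and carry no replicate number. Because reads could be recovered, edgeR's quasi-likelihood test (edgeR 4.0.16 in R 4.3.3, TMM normalization) was run on these counts across all regions with Benjamini-Hochberg adjustment at 0.05, a choice made after seeing the data, with DESeq2 1.42.0, library totals only, the added read kept and each library left out as alternatives, as were the 16 h GATA6 libraries for the time course. The recovery of reads was tried on simulated libraries. The edgeR test was tried on simulated counts for the XEN ratio and for GATA6 with Oct4 siRNA only. Changes were placed there in regions of higher read counts, so counts as low as the 0 reads of OCT4 were not covered.

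Sequence was read from mm10 with pysam 0.24.0 in windows of 201 bp around the GATA6 summit. Tandem repeats were shifts of 10 to 60 bp with at least 80% self-match over 80 bp. Shares have Wilson 95% intervals and medians order-statistic intervals, which cover counting error only. The members, gene lists and named regions were chosen with earlier results of these data known. The rule for named regions took those highest or lowest in day 4 GATA6, the ratio, XEN cells, OCT4, 8 h GATA6 and siRNA change, with the regions next to each limit. These rules reached all 15 members, of which 1 is not reported here by itself and is held only in the counts and medians.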

Additional observations from a re-analysis of the deposited data

How the results depend on the processing

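No paired analysis was possible because the libraries recovered from a pooled column carry no replicate number. The number of regions that met the rule was 1 at a ratio of 0.25, 335 at 0.5, 31 at a GATA6 minimum of 3 RPM, 5 at 6 RPM and 98 with input subtracted, and 4 to 15 of the 15 met it in single library pairs. With input subtracted, the median SOX17 to GATA6 ratio in XEN cells was 0.10 and the day 2 OCT4 median 1.41 RPM. The share with a GATA6 motif, 86.7% in the high or middle class, was 53.3% for the high class only and 100% for any match. For SOX17 it was 6.67%, and 0% for the high class only, 46.7% for any match and 0% among regions of 400 to 800 bp. The share accessible or moderate, 20.0%, was 6.67% for accessible only. The median log2 change of pooled SOX17 with Oct4 siRNA was 0.31 and became -0.21 relative to the median region. Leaving out either 16 h GATA6 library gave a 16 h median of 5.84 to 11.1 RPM, and 1 to 10 of the 15 regions highest at 16 h. The cause of these shifts was not tested.

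For the counts called by edgeR, DESeq2 gave 6 in XEN cells, 5 for the day 2 ratio, 1 for SOX17 with Oct4 siRNA, 7 for GATA6, 4 for OCT4 and 1 for SOX2 between 8 h and day 2. Library totals only gave 6 for the day 2 ratio, 1 for lower GATA6 and 0 for lower SOX17 with Oct4 siRNA. Leaving out 1 library gave 8 to 11 in XEN cells, 2 to 12 for the day 2 ratio, 2 to 5 and 0 to 2 for lower GATA6 and SOX17 with Oct4 siRNA, and 7 to 11, 5 to 9 and 2 to 4 for GATA6, OCT4 and SOX2 between 8 h and day 2. The cause was not tested. Of 371 values of single regions under these alternatives, 276 kept their direction and side of the threshold and 95 kept the direction only.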

Other observations

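Some of the 15 regions have another GATA6-bound region close by. The nearest other region to that of Tmtc1 was 0.859 kb away, with 1.11 RPM of GATA6 at day 4 and a SOX17 to GATA6 ratio of 0.318. The nearest to that of Kif23 was 5.27 kb away, with 6.72 RPM and a ratio of 0.513. The region of Muc5ac was the most isolated of the 15, with its nearest neighbour 79.5 kb away.

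By the authors' motif scan, the ESRRB match was in the high class in Muc5ac and Gsc, and 10 of the 15 regions had none (66.7%, beside 63.7% of all regions). A combined OCT4-SOX2 match in the high class was found in 0 of the 15 (6.68% of all regions) and one in the middle class in Tmtc1.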
